A study of Rattus norvegicus with 9 samples.

Results

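The B cell and plasma cell genes described here were 9 genes chosen by name because Jchain and Ighm had stood out in the measured values of these rats, since both were raised after infarction and less so in the DAPA-treated rats. The other 7 are known genes of the same lineage, listed with these values known. The values that chose the members are thus those of MI vs. Sham and DAPA vs. MI, and for the members these contrasts are given as a description. Of the 9 genes, 8 were found by name among the 35843 genes of the deposited table, and Cd79a, an antigen receptor subunit, had no row under that name. RefSeq lists Cd79al as a synonym of Cd79a, and a row named Cd79al was at 0.304 FPKM in MI rat 2, 0.140 in MI rat 3, 0.149 in DAPA rat 3 and 0 in the other rats.

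B cells carry an antigen receptor made of a membrane immunoglobulin and a pair of signalling chains. When activated they can become plasma cells, which enlarge their endoplasmic reticulum and secrete antibody. The heart normally holds few cells of this lineage, and injured myocardium can draw in lymphocytes.

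Poly-A RNA from the left ventricle of 9 SD rats was sequenced at day 28, with 3 rats in each of 3 groups. Group Sham underwent the operation without ligation of the coronary artery. Group MI had the left anterior descending artery ligated permanently and received saline, as did group Sham. Group MI + DAPA (1st d), called DAPA in rat names and comparisons, had the same ligation and was gavaged daily with dapagliflozin, an inhibitor of sodium-glucose cotransport, from the first day after infarction. All rats were adult males according to the study's methods. These say that molecular work mostly took tissue at the edge of the infarct with the scar cut away, and matching sites in group Sham, but name the source of the sequenced RNA as left ventricle. Elsewhere the study speaks of infarct myocardium, so how much scar each sample held is not known. Values are FPKM as deposited, reads scaled by gene length and by a denominator for each library, and are thus levels per length. That denominator did not follow the recovered reads. Per recovered read and relative to the mean, it was 0.53 to 0.64 in the Sham rats, 1.24 to 1.35 in the MI rats and 0.99 to 1.28 in the DAPA rats. Each rat had between 13597239 and 17210909 recovered reads, and the group medians were 17097280 (Sham), 15565791 (MI) and 16146281 (DAPA). In bulk tissue, fewer B lineage cells and less RNA per cell cannot be told apart.

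Promoter sequence was available from RefSeq (build GRCr8) for 4 of the 9 genes, and those of Jchain and Derl3 are shown because Jchain had the highest level of the members in group MI and Derl3 was the gene whose pattern departed from the others. Each is the 250 bases before the annotated start, 5′ to 3′ along the gene. Capitals mark ATTTGCA in Jchain, 7 letters of the octamer that immunoglobulin genes share, and in Derl3 the endoplasmic reticulum stress response element (ERSE), which stands on the strand opposite to the gene.
Jchain, chr14:19822726-19822975, + strand: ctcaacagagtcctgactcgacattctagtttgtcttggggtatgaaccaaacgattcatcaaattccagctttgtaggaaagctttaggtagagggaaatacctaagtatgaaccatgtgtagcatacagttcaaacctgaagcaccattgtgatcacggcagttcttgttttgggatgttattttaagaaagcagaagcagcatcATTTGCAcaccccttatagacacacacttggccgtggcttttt
Derl3, chr20:12766466-12766715, - strand: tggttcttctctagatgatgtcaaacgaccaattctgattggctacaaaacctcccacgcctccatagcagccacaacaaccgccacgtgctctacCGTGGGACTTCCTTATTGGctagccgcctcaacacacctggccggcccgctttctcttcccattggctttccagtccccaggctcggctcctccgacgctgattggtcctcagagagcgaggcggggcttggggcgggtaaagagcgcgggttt
The whole ERSE, spelled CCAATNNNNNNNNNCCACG, was found on either strand in 22 of 33469 rat promoters, or 0.0657%. Among the promoters of the members and of the other B lineage genes listed, those of Derl3, Xbp1 and Creld2 held it, and the matches are shown on the strand on which they read, with the fixed letters in capitals.
Derl3, chr20:12766601-12766619, + strand: CCAATaaggaagtcCCACG
Xbp1, chr14:84604558-84604576, + strand: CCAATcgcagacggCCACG
Creld2, chr7:121789239-121789257, - strand: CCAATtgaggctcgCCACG
Xbp1 encodes a transcription factor of the unfolded protein response that plasma cells need, and Creld2 an endoplasmic reticulum protein. The 7 letters ATTTGCA lay 43 to 37 bases before the Jchain start and were found in 3.54% of all promoters. The full octamer ATTTGCAT was found in 1.56% of promoters, in none of the 4 member promoters and in those of Blnk and Vpreb3 among 49 promoters of other B lineage genes. In all, 11 motifs were searched on both strands, some after the sequences had been seen. The others were CCAAT (34.0% of promoters) and CCACG (27.2%), which form the ends of the ERSE, TCCCNNGGGA (0.738%), TGACGTGG (0.52%), TATAAA (12.9%), ACGTGG (6.71%), GGAAGT (19.2%) and CACGTG (5.59%), which can overlap ACGTGG. A match is a description of letters only.

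The immunoglobulin chains had the highest levels among the members in every MI and DAPA rat, while Mzb1 was the highest in Sham rat 2. Jchain (ENSRNOG00000003666) encodes the joining chain that links IgM and IgA into polymers. It was at 0.796, 3.45 and 1.42 FPKM in Sham rats 1, 2 and 3, at 23.9, 2881 and 503 FPKM in MI rats 1, 2 and 3, and at 5.05, 7.39 and 8.87 FPKM in DAPA rats 1, 2 and 3. No group overlapped with another, and within group MI the highest rat was 120 times the lowest. The log2 difference, on the log2(FPKM + 1) scale that understates changes of low values, was 6.95 (SE 1.53) in MI vs. Sham and -5.38 (SE 1.54) in DAPA vs. MI.

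Ighm (ENSRNOG00000034190) encodes the constant part of the heavy chain of immunoglobulin M. Its level was 4.09, 3.07 and 2.66 FPKM in the Sham rats, 10.5, 713 and 122 FPKM in the MI rats and 4.60, 3.11 and 6.04 FPKM in the DAPA rats. The MI rats lay above all others, while the DAPA and Sham rats overlapped. The log2 difference of Ighm was 4.57 (SE 1.3) in MI vs. Sham and -4.20 (SE 1.34) in DAPA vs. MI. MI rat 1, the lowest of its group in both genes, was 3.37 times the mean of the DAPA rats for Jchain and 2.28 times for Ighm. No other row with an immunoglobulin segment name had a level to report, Igll1 being at 0.414 FPKM in MI rat 3 and at 0 elsewhere.

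Jchain and Ighm together took 0.851% of all recovered reads in MI rat 2, 0.135% in MI rat 3 and 0.0108% in MI rat 1. The share was 0.00102% to 0.00186% in the Sham rats and 0.00249% to 0.00593% in the DAPA rats, against 1.74e-05% to 2.21e-05% that 3 reads would give, counting error alone considered. The share in MI rat 1 was thus above the highest DAPA rat, and far nearer to it than to MI rat 3.

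The genes of the antigen receptor and the B cell surface were lower in level and had the same 2 high rats. Cd79b (ENSRNOG00000011917), a signalling chain of the antigen receptor, was at 0.712, 0.242 and 1.32 FPKM in the Sham rats, 0.557, 32.9 and 4.88 FPKM in the MI rats and 0.903, 1.08 and 0.320 FPKM in the DAPA rats. MI rat 1, with 13 reads, lay among the Sham and DAPA rats. Ms4a1 (ENSRNOG00000020945), which encodes the B cell antigen CD20, was at 0.233, 0.553 and 0 FPKM in the Sham rats, 0.126, 17.3 and 3.26 FPKM in the MI rats and 0.0492, 0.606 and 0.404 FPKM in the DAPA rats. Outside MI rats 2 and 3 it never exceeded 12 reads, so groups Sham and MI + DAPA (1st d) could not be told apart at this depth. Pax5, a B cell transcription factor that is not a member, was at 1.63, 1.16 and 0.772 FPKM in the Sham rats, 0.0440, 1.88 and 1.64 FPKM in the MI rats and 0.0515, 0.212 and 0.470 FPKM in the DAPA rats. The MI rats overlapped with both other groups. In FPKM every DAPA rat was below every Sham rat, as in 3542 of 21975 genes. This rested on 20, 14 and 8 reads in the Sham rats against 1, 4 and 10 in the DAPA rats, which overlapped, and nothing is read from it.

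Pou2af1 and Tnfrsf17 act in the B cell nucleus and in plasma cell survival. Pou2af1 (ENSRNOG00000011500), a coactivator that binds octamer factors, was at 0, 0.116 and 0 FPKM in the Sham rats, 0.123, 33.7 and 5.99 FPKM in the MI rats and 0.60, 0 and 0.372 FPKM in the DAPA rats. Tnfrsf17 (ENSRNOG00000021987), the receptor BCMA for the survival ligands BAFF and APRIL, was at 0, 0.101 and 0 FPKM in the Sham rats, 0.375, 9.97 and 1.89 FPKM in the MI rats and 0, 0.516 and 0.172 FPKM in the DAPA rats. In both genes every MI rat was above every Sham rat, but for MI rat 1 this rested on 6 and 7 reads, against at most 3 and 1 in a Sham rat. DAPA and MI rats overlapped in both.

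The members of the endoplasmic reticulum differed from each other. Mzb1 (ENSRNOG00000022009), a chaperone for antibody assembly, was at 1.97, 5.18 and 0.493 FPKM in the Sham rats, 0.730, 172 and 29.9 FPKM in the MI rats and 0.197, 0.338 and 0.660 FPKM in the DAPA rats. MI rat 1 was below Sham rats 1 and 2, and the DAPA rats were below all MI rats by a margin of 11 reads in DAPA rat 3 against 13 in MI rat 1. Derl3 (ENSRNOG00000055498), which takes part in removing misfolded proteins, was at 0, 0.142 and 0 FPKM in the Sham rats, 0, 0.0824 and 3.04 FPKM in the MI rats and 0.176, 0 and 0 FPKM in the DAPA rats. MI rat 3 alone held 40 reads of Derl3, while MI rat 2, the highest rat in the other 7 genes, held 1. In the RefSeq annotation Derl3 overlaps Smarcb1 and Ms4a1 overlaps an uncharacterised locus, and whether reads were counted by strand is not stated in the sources used here.

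**Figure D1:**
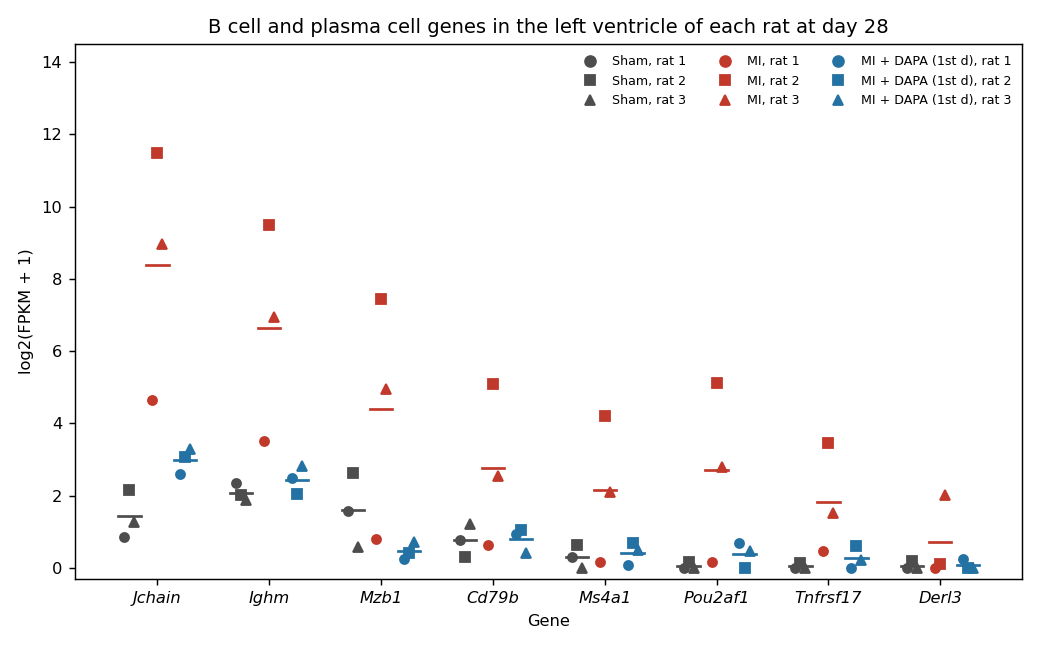
Level of the 8 B cell and plasma cell genes as log2(FPKM + 1), with 1 point per rat, colours for the groups, shapes for the rat numbers and a bar at each group mean. MI rats 2 and 3 lie above all other rats in every gene but Derl3, where MI rat 3 alone is high at 3.04 FPKM, and MI rat 1 is the lowest of its group throughout.

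In all, MI rats 2 and 3 were above the 7 other rats in 7 of the 8 genes, and MI rat 1 was the lowest of its group in 8 of 8. MI rat 2 held between 81.5% and 85.8% of the summed FPKM of group MI in these 7 genes and 2.64% in Derl3. Every MI rat was above every Sham rat in 4 of the 8 genes, where 21.1% of all genes did so. Every DAPA rat was below every MI rat in 3 of the 8, namely Jchain, Ighm and Mzb1, where 6.26% of all genes did so. These separations were part of the choice of Jchain and Ighm, and nothing is read from their number. The median log2 difference of the 8 genes was 2.32 in MI vs. Sham and -2.14 in DAPA vs. MI, against medians of -0.01 and -0.02 over all genes tested. Without MI rat 2 these became 1.11 and -1.02. The study called genes at p under 0.05 with a log2 fold change beyond 1 either way, and these criteria were met by Jchain and Ighm, 2 of the 4 members that passed the filter on low values in MI vs. Sham, where limma called 12.1% of genes higher and 10.3% lower. The same 2 of 3 members passed as lower in DAPA vs. MI, where 1.11% of genes were lower and 0.951% higher. After Benjamini-Hochberg adjustment of the limma p-values no gene passed 0.05 in that comparison, and both members were at 0.558.

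The comparison DAPA vs. Sham did not itself choose the genes, but its log2 differences follow from the 2 comparisons that did. The p-values of this comparison are thus a description for the members and not an independent test. Of the 2 members tested there, Jchain was higher in the DAPA-treated rats and Ighm did not pass, where 9.54% of all genes were called higher and 8.16% lower. The mean Jchain level was 1.89 ± 1.39 FPKM in the Sham rats and 7.10 ± 1.92 FPKM in the DAPA rats (SD, n = 3 each). The log2 fold change of Jchain was 1.57 (SE 0.36, limma with Benjamini-Hochberg adjustment, adjusted p = 0.0170). All 3 DAPA rats were above all Sham rats, which held for 1 of the 8 members and for 17.2% of all genes. With all 9 rats in 1 fit, where the spread of group MI enters, the unadjusted limma p was 0.275 and the call was lost, and over all alternatives the limma adjusted p ranged from 0.00150 to 0.403. For Ighm the log2 fold change was 0.37 (SE 0.25, limma, adjusted p = 0.312). The median log2 difference over the 8 members was 0.17. When values were scaled to all recovered reads, the median of all genes moved to 0.92 in MI vs. Sham, -0.21 in DAPA vs. MI and 0.74 in DAPA vs. Sham. On that scale Jchain was at 7.75, -5.62 and 2.13 and Ighm at 5.47, -4.45 and 1.03 in the same order. Ighm thereby gained the call in DAPA vs. Sham (limma adjusted p = 0.0216), on a scale where the median gene stood at 0.74. The same scaling turned the genes called in MI vs. Sham from 1634 higher and 1390 lower into 6099 higher and 290 lower.

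The ratio between the 2 high rats was nearly the same in 7 of the members. FPKM in MI rat 2 divided by FPKM in MI rat 3 was 5.72 for Jchain, 5.83 for Ighm and 5.74 for Mzb1. It was 5.64 for Pou2af1, 6.74 for Cd79b, 5.31 for Ms4a1 and 5.27 for Tnfrsf17. The exact 95% counting interval was 5.73 to 5.92 for Ighm, which had the most reads, and 3.65 to 7.82 for Tnfrsf17, which had the fewest of the 7, and the intervals of the 7 genes all overlapped. For Derl3 the ratio was 0.0271 (exact 95% counting interval 0.00067 to 0.160), on 1 read against 40. Over 14170 genes the median ratio was 1.03, and 0.438% of genes lay between 5.27 and 6.74, while 1.35% were at or below Derl3. That range was set by the lowest and highest of the 7 members themselves, so nothing is read from the share of genes within it. The T cell markers had a median ratio of 3.62, macrophage markers 1.87, fibroblast markers 1.79, cardiomyocyte markers 0.208 and mesothelial markers 23.1. The medians of the 5 lists of other B lineage genes lay between 1.48 and 2.78, with single genes from 0.437 for Fcer2 to 15.7 for Tnfrsf13c.

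**Figure D2:**
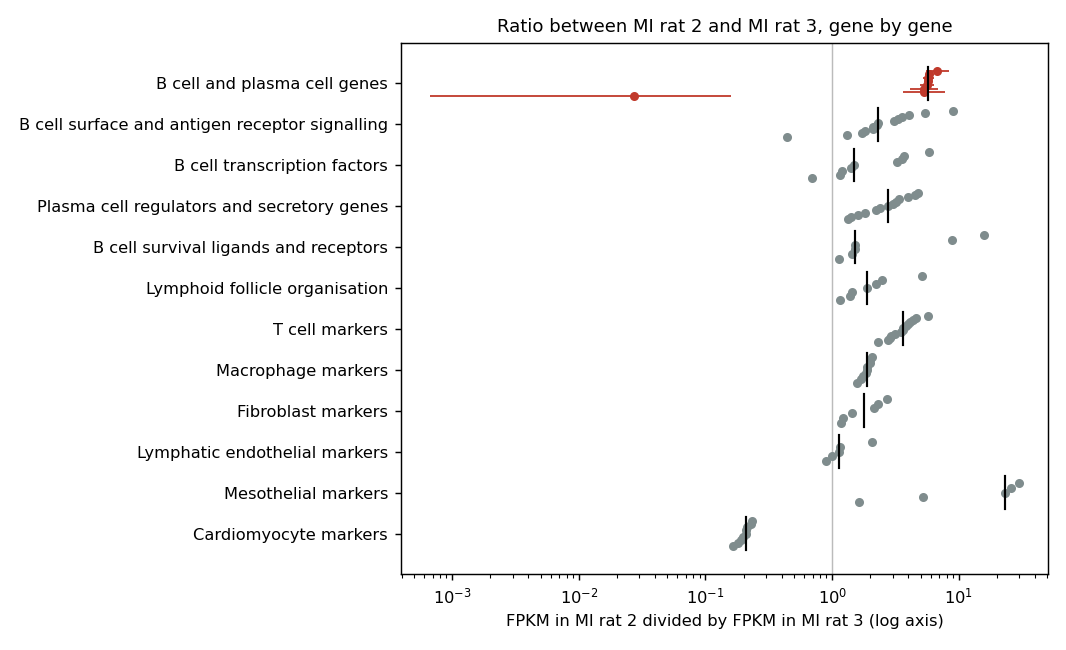
FPKM in MI rat 2 divided by FPKM in MI rat 3 for each gene, by gene list on a log axis, with black bars at list medians and, for the B cell and plasma cell genes, exact 95% counting intervals as lines. Of these genes 7 lie between 5.27 and 6.74 and Derl3 lies at 0.0271, while T cell markers have a median of 3.62 and cardiomyocyte markers of 0.208.

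Genes linked to the B lineage were followed in 5 lists of 60 genes. Not all are specific to it, and Irf8, Cd37 and Slamf7, for example, are also genes of other leukocytes. A rise in these lists is thus not by itself a rise of B lineage cells. Of the 60 genes, 59 were found and 39 were tested in MI vs. Sham. Of these 39, 19 rose and 0 fell in group MI, where 12.1% of all genes were called higher, with a median log2 fold change of 1.04, and 18 of the 19 also had a limma adjusted p under 0.05. In DAPA vs. MI 6 of 37 fell and 0 rose, where 1.11% of all genes were called lower, with a median of -0.64, and 0 of them passed the adjusted p. In DAPA vs. Sham 8 of 31 rose and 0 fell, where 9.54% of all genes were called higher, 7 of them also with an adjusted p under 0.05, with a median of 0.46. Fcrla, Btk, Cd22, Ikzf1, Slamf7, Irf4, Tnfsf13b and Cxcr5 were under 1 FPKM in every Sham rat. They passed the filter in MI vs. Sham only through group MI, so a fall was not possible for them. In DAPA vs. MI, Fcrla, Irf4 and Ccr7 also passed only through group MI, so a rise was not possible for them. Ikzf1 and Tnfsf13b passed in DAPA vs. Sham only through the DAPA rats. The counts, and the p-values given below for these genes in these comparisons, are thus a description. Among the list genes called higher in MI vs. Sham, the ratio of MI rat 2 to MI rat 3 ranged from 1.15 (Ccl19) to 4.79 (Irf4). In the members other than Derl3 it was at least 5.27. Of the 50 list genes that reached 1 FPKM in any rat, 41 were highest in MI rat 2, as were 18.6% of all genes. Without MI rat 2, 11 list genes rose in group MI and 1 fell with DAPA vs. group MI, where 3 of the 6 were no longer tested. That last count was 3 without DAPA rat 1 and 2 without DAPA rat 2, and 5 list genes rose in DAPA vs. Sham without DAPA rat 3.

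Of the genes of the B cell surface and antigen receptor signalling, 6 of 11 tested rose in MI vs. Sham. Of all genes, 12.1% were called higher there. Fcrla, an Fc receptor-like protein of B cells, was at 0.112, 0.0572 and 0 FPKM in the Sham rats, 1.73, 4.99 and 2.36 FPKM in the MI rats and 0.142, 0.658 and 0.422 FPKM in the DAPA rats. All 3 MI rats were thus above all others, and MI rat 1 was close to MI rat 3. Its log2 fold change was 1.85 (SE 0.32, limma adjusted p = 0.00520) in group MI and -1.45 (SE 0.33, limma adjusted p = 0.558) with DAPA. Cd37, a tetraspanin of leukocytes, was at 8.24, 3.94 and 4.33 FPKM in the Sham rats, 19.6, 51.7 and 22.3 FPKM in the MI rats and 12.3, 10.9 and 15.9 FPKM in the DAPA rats. It rose by 2.23 in group MI and was also higher with DAPA than in group Sham, by 1.15 on the log2 scale (limma adjusted p = 0.0194), or 0.98 and under the threshold without Sham rat 2. Blnk, the adaptor of the antigen receptor, was at 6.65, 12.9 and 6.13 FPKM in the MI rats, between 5.90 and 7.41 FPKM in the Sham rats and at 3.69, 3.33 and 5.10 FPKM in the DAPA rats. Every DAPA rat was thus below every other rat in FPKM, with a log2 difference of -0.87 in DAPA vs. MI (SE 0.29, limma adjusted p = 0.558), under the fold-change threshold. In reads, the Sham rats (122, 145 and 99) and the DAPA rats (116, 102 and 176) overlapped, so their separation rests on the deposited scaling. Swap70, which acts in B cell activation, had a log2 difference of 0.72 in group MI, under the threshold.

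The transcription factors were divided. Ikzf1, which encodes Ikaros, was at 0.407, 0.264 and 0.484 FPKM in the Sham rats, 2.47, 9.98 and 2.79 FPKM in the MI rats and 1.46, 1.13 and 3.70 FPKM in the DAPA rats, with a log2 fold change of 1.92 in group MI (limma adjusted p = 0.0139). Irf8, an interferon regulatory factor of B and myeloid cells, rose by 1.45 (limma adjusted p = 0.00554). These were 2 of 6 tested, where 12.1% of all genes were called higher. In DAPA vs. MI 0 of 5 passed, where 1.11% of all genes were called lower. Bcl6, a repressor of germinal centre B cells, was lowest of the MI rats in MI rat 2, at 6.73 FPKM against 9.48 and 9.70.

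Among the plasma cell regulators and secretory genes, 5 of 12 tested rose in group MI, where 12.1% of all genes were called higher. Txndc5, a disulfide isomerase of the endoplasmic reticulum, was at 21.2, 19.1 and 19.9 FPKM in the Sham rats, 97.6, 158 and 86.3 FPKM in the MI rats and 74.0, 61.0 and 78.4 FPKM in the DAPA rats. Its log2 fold change was 2.40 in group MI (SE 0.23, limma adjusted p = 0.00105) and 1.77 in the DAPA-treated rats vs. group Sham (SE 0.16, limma adjusted p = 0.00156). The 3 groups did not overlap, and MI rat 1 was above MI rat 3, unlike in the members. Xbp1 was at 28.9, 33.1 and 30.9 FPKM in the Sham rats, 81.9, 171 and 76.8 FPKM in the MI rats and 66.7, 43.0 and 69.7 FPKM in the DAPA rats. Irf4, a factor needed for plasma cells, was at 1.02, 10.6 and 2.21 FPKM in the MI rats, and Slamf7, a surface receptor of plasma and other lymphoid cells, at 1.91, 17.8 and 3.95 FPKM. Both followed the order of the members in group MI, were at most 1.59 FPKM in any Sham or DAPA rat and fell with DAPA by the criteria of the study, at log2 fold changes of -1.44 and -1.51 (limma adjusted p = 0.558 for both). Both calls were lost when any 1 DAPA rat was left out, at log2 differences of -1.52 to -1.36 for Irf4 and -1.60 to -1.44 for Slamf7, and that of Slamf7 also without MI rat 2, at -0.74, or MI rat 3, at -1.70. The limma adjusted p of Irf4 in MI vs. Sham was 0.0812, and its call there was lost without any 1 Sham rat, at 1.43 to 1.69.

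Of the survival ligands and receptors, 1 of the 4 tested rose in group MI, where 12.1% of all genes were called higher. Tnfsf13b, which encodes BAFF, was at 0.974, 0.812 and 0.105 FPKM in the Sham rats, 7.60, 15.3 and 10.03 FPKM in the MI rats and 5.22, 3.14 and 7.99 FPKM in the DAPA rats. Its log2 fold change was 2.87 in MI vs. Sham (limma adjusted p = 0.00142) and 1.96 in DAPA vs. Sham (limma adjusted p = 0.00786). Both p-values are a description, since Tnfsf13b was under 1 FPKM in every Sham rat. The receptors for it besides Tnfrsf17 were highest in MI rat 2, with Tnfrsf13b (TACI) at 0, 9.21 and 1.04 FPKM and Tnfrsf13c (BAFF receptor) at 0.208, 5.65 and 0.359 FPKM in the MI rats, with at most 0.454 FPKM in any Sham or DAPA rat. Tnfsf13, which encodes APRIL, ranged from 12.8 to 16.2 FPKM in the Sham rats, 10.3 to 19.8 in the MI rats and 8.67 to 11.3 in the DAPA rats. Il6 was at most 0.823 FPKM in any rat. Cxcl12 and its receptor Cxcr4, which hold plasma cells in their niche, had their highest levels in Sham rat 1, at 132 and 42.6 FPKM.

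The genes that organise lymphoid follicles rose in group MI in 5 of 6 tested, where 12.1% of all genes were called higher. With DAPA vs. group MI 2 of 6 fell, where 1.11% of all genes were called lower, and neither passed the adjusted p. Cxcr5 in the first comparison and Ccr7 in the second passed the filter only through group MI. Cxcl13, the chemokine that attracts B cells, was at 5.88, 7.79 and 2.79 FPKM in the Sham rats, 47.2, 121 and 54.5 FPKM in the MI rats and 17.1, 14.6 and 44.4 FPKM in the DAPA rats. No group overlapped with another, and the log2 fold change was 3.49 in group MI (limma adjusted p = 0.00183), -1.56 with DAPA vs. group MI (limma adjusted p = 0.558) and 1.94 with DAPA vs. group Sham (limma adjusted p = 0.0190). The call with DAPA vs. group MI was lost without DAPA rat 1, at -1.37, and without DAPA rat 2, at -1.26. MI rat 1, which had few reads of the B cell members, was at 47.2 FPKM of Cxcl13 and near MI rat 3. Ccl19 and Ccl21, ligands of the receptor Ccr7, rose by 3.00 and 2.11 in group MI (limma adjusted p = 0.00163 and 0.0124). Ccr7 was at 2.21, 5.88 and 3.11 FPKM in the MI rats and between 0.638 and 0.917 FPKM in the DAPA rats, with a log2 fold change of -1.34 (limma adjusted p = 0.558).

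**Figure D3:**
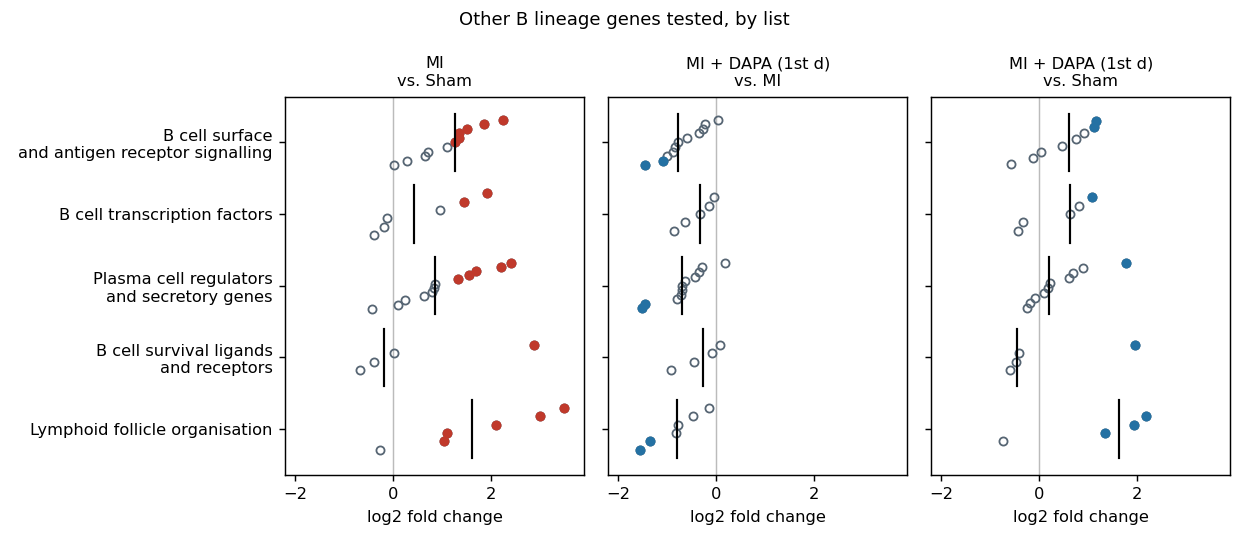
Log2 fold changes by limma of the tested genes of 5 B lineage lists in the 3 comparisons, 1 circle per gene, filled where the unadjusted p was under 0.05 and the fold change beyond the threshold, with black bars at list medians. Filled circles number 19 on the right in MI vs. Sham, 6 on the left in DAPA vs. MI and 8 on the right in DAPA vs. Sham.

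Within group MI, the summed markers of most other cells were highest or lowest in MI rat 2, and their part in the result was not tested. Neutrophil markers, at 70.7, 30.2 and 18.4 FPKM in MI rats 1, 2 and 3, were highest in MI rat 1. So were mast cell markers, at 30.8, 26.9 and 20.4 FPKM. The 14 T cell markers summed to 69.6, 313 and 105 FPKM in MI rats 1, 2 and 3, to 13.5 to 34.9 in the Sham rats and to 38.8 to 73.0 in the DAPA rats, and 14 of 14 were highest in MI rat 2. Cd4 made up a large part of the MI and DAPA sums. It was at 48.3, 124 and 53.8 FPKM in the MI rats, 1.06 to 4.75 in the Sham rats and 23.1 to 51.5 in the DAPA rats. Cd3e was at 1.69, 19.5 and 4.70 FPKM in the MI rats, and its DAPA (0.404 to 1.29) and Sham rats (0.0758 to 1.36) overlapped. The 9 cardiomyocyte markers summed to 7482, 2651 and 13821 FPKM in the MI rats, and 9 of 9 were lowest in MI rat 2. The summed level of the 5 mesothelial markers was 32.7, 96.2 and 9.42 FPKM in the MI rats, with 78.8 FPKM of Msln in MI rat 2. In the Sham rats the sum was 32.8 to 39.8 FPKM, of which Wt1 made up 32.4 to 37.9 and Msln at most 1.49. Wt1 was at 10.3, 8.12 and 4.96 FPKM in the MI rats, so the mesothelial markers did not move together. MI rat 3, which had the second level of the members, had the highest cardiomyocyte sum and the lowest mesothelial sum of group MI. Macrophage markers summed to 1948, 3541 and 2007 FPKM in the MI rats and to 1066 to 1983 in the DAPA rats. The 6 thymocyte markers summed to 6.14 to 9.98 FPKM in the Sham rats, 8.37, 13.5 and 11.7 in the MI rats and 6.47 to 11.4 in the DAPA rats, most of it Cd1d1. Rag2 was at 0 in all 9 rats and Rag1 at most 0.0521 FPKM, while Themis was at 0.141, 1.11 and 0.214 FPKM in the MI rats and at most 0.0828 FPKM elsewhere. The 7 adipocyte markers, led by Fabp4, summed to 3940 to 5594 FPKM in the Sham rats, 760, 391.8 and 502 in the MI rats and 615 to 1109 in the DAPA rats. They did not move together, since Adipoq was at 0 in the Sham rats, 0.256 to 0.457 FPKM in the MI rats and 0.803 to 5.96 FPKM in the DAPA rats, whereas Cfd was highest in MI rat 2, at 220 FPKM.

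**Figure D4:**
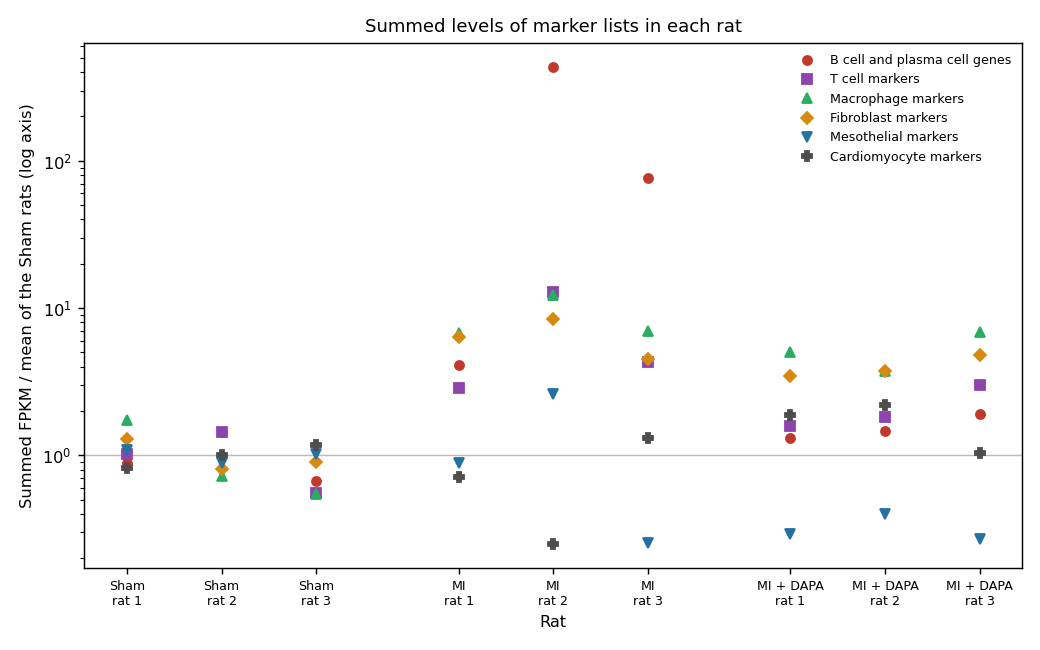
Summed FPKM of the 8 B cell and plasma cell genes and of 5 marker lists in each rat, divided by the mean of the 3 Sham rats, on a log axis with 1 point per list and rat. The summed member level was 3860 FPKM in MI rat 2, 675 in MI rat 3, 36.3 in MI rat 1 and at most 16.8 in the other rats, while the cardiomyocyte sum was lowest in MI rat 2. The mesothelial sum was mostly Wt1 in the Sham rats and mostly Msln in MI rat 2.

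Outside the members, the genes whose pattern was most like theirs were mostly without a symbol. The likeness was Pearson's r of log2(FPKM + 1) with the mean of the 8 members over the 9 rats, among 14153 genes, and it rests on MI rats 2 and 3. The highest value was that of AABR07060872.1 (ENSRNOG00000049829), with r = 0.989 and Spearman's rho = 0.933, and with r = 0.881 over the 7 rats other than MI rats 2 and 3. This locus was at 47.3, 16144 and 2135 FPKM in the MI rats, above Jchain in each of them, at 5.14 to 10.5 FPKM in the Sham rats and at 11.9 to 26.9 FPKM in the DAPA rats. The only gene with a symbol among the first 10 was Cd5l, which encodes a protein that macrophages secrete and that binds IgM, at 1.00, 17.2 and 6.80 FPKM in the MI rats and at most 1.01 FPKM in the others (r = 0.985, and 0.753 without MI rats 2 and 3). The ratio of MI rat 2 to MI rat 3 ranged from 2.54 for Cd5l to 44.8 for AABR07065781.1 among these 10, a wider range than in the 7 members.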

How the data were processed

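RNA-seq libraries were made from poly-A RNA of 9 left ventricles, 3 rats in each group, and grouped by the sample titles. Per rat, 1 column of FPKM values was deposited by the authors. The submitters' processing notes name HISAT2 2.0.5, StringTie 1.3.3b, featureCounts 1.5.0-p3 and DESeq2. The genome build is not given in the sources used here. Each title names a pair of items per rat whose meaning is not given.

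FPKM values of a gene are whole multiples of 1 read, and whole reads (tolerance 0.02 read) were recovered for 18896 of 18896 genes that had values in 4 or more rats. A factor common to all reads of a gene cannot be seen this way. The deposited denominator per read, relative to the mean, was 0.53 to 0.64 in the Sham rats, 1.24 to 1.35 in the MI rats and 0.99 to 1.28 in the DAPA rats, so the values already carried a scaling between libraries. Intervals and shares cover counting error only.

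Genes reaching 1 FPKM in 3 or more of the 6 rats were fitted with limma 3.58.1 (R 4.3.3) on log2(FPKM + 1), 2 groups per fit and the variance trend, and called at unadjusted p under 0.05 with a log2 fold change beyond 1 either way. Benjamini-Hochberg adjustment ran over all genes tested. The p-values measure the spread between 3 rats a group. The fit was also run on simulated counts with the same spread setting for all genes and no outlying rat. That run cannot show how the fit behaves where MI rat 2 dominates. Other steps used Python 3.11.15 with numpy 2.4.6, pandas 2.3.3, scipy 1.17.1 and matplotlib 3.10.9.

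The members, lists and tests were chosen with earlier results of these data known. Named genes were all members, from each of the 5 lists at most 3 with the smallest p in MI vs. Sham and 2 in DAPA vs. MI, all survival ligands and receptors, and the 10 genes most like the members. Pax5, Creld2, Vpreb3 and Fcer2, from the B lineage lists, and the single genes of the marker lists were named after their values or sequences were seen. Alternatives were no filter on low values, a pseudocount of 0.1, all 9 rats in 1 fit, a replicate block, rescaling by the median of ratios, adjusted p-values, no fold-change threshold and each rat left out, and, chosen after seeing the data, values scaled to all recovered reads. The values of 1 listed gene are not reported here.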

Additional observations from a re-analysis of the deposited data

How the results depend on the processing

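The direction of the median log2 difference of the 8 members was kept under all alternatives in the 3 comparisons. It ranged from 1.11 to 3.48 in MI vs. Sham, from -3.30 to -1.02 in DAPA vs. MI and from 0.06 to 0.27 in DAPA vs. Sham when single rats were left out. In the last comparison it was 0.44 with a pseudocount of 0.1 and 0.31 with values scaled to all recovered reads. With single rats left out, the calls among the list genes ranged from 11 to 19 in MI vs. Sham, from 1 to 8 in DAPA vs. MI and from 5 to 9 in DAPA vs. Sham. The lowest were without MI rat 2 (11 and 1) and without DAPA rat 3 (5), and the count with DAPA vs. group MI was 3 without DAPA rat 1 and 2 without DAPA rat 2. Without MI rat 2, Fcrla, Ccr7 and Irf4 no longer passed the filter in DAPA vs. MI. Scaled to all recovered reads, the calls were 30, 12 and 17 in the 3 comparisons. With adjusted p-values 0 of 6 remained in DAPA vs. MI, and with no fold-change threshold 18 list genes passed in DAPA vs. Sham. Rat numbers did not pair the rats: deviations of same-numbered rats correlated at -0.02 on average, against 0.01 for other pairs, and 2 of 9 pairs were over 0.1. With the replicate block the list calls were 20, 6 and 7, and the median member differences were the same by construction, at 2.32, -2.14 and 0.17. With 3 rats a group, and few reads of Ms4a1, Tnfrsf17, Pou2af1 and Derl3 outside MI rats 2 and 3, differences between groups Sham and MI + DAPA (1st d) in these genes were not detectable at this depth.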
